A study of Mus musculus with 6 samples.

Results

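The 10 genes described here encode enzymes that make, cleave or interconvert threonine, glycine, serine and the folate-bound carbon units drawn from them. They are Tdh and Gcat of threonine breakdown, Gldc and Gcsh of the glycine cleavage system, Shmt1, Shmt2 and Mthfd2 of folate metabolism, and Phgdh, Psat1 and Psph of serine synthesis. They were chosen by symbol through their Ensembl identifiers, and all 10 were found among the 51826 gene rows of the count table. RNA was sequenced from V6.5 cells, a mouse embryonic stem cell line, in 2 states with 3 libraries each. Embryonic stem cells (ESC) were kept with leukaemia inhibitory factor (LIF) and 2i, inhibitors of GSK3 and MEK that hold the naive state. Epiblast-like cells (EpiLC), which resemble the early post-implantation epiblast, came from the same line on day 3 without LIF and without 2i. Both states were wild type and shared a Knockout DMEM base with 15% fetal bovine serum, L-glutamine and non-essential amino acids. Supplements of non-essential amino acids commonly hold glycine and serine.

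In mouse embryonic stem cells threonine is known as a source of glycine and acetyl-CoA. TDH, a mitochondrial dehydrogenase, oxidises threonine, and GCAT splits the product into glycine and acetyl-CoA. The glycine cleavage system then passes a carbon unit of glycine to tetrahydrofolate, SHMT enzymes do the same with serine, and MTHFD2 oxidises the folate-bound unit in mitochondria toward formate, which feeds purine and thymidylate synthesis. PHGDH, PSAT1 and PSPH make serine from a glycolytic intermediate in consecutive steps.

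Levels are in CPM, read counts relative to the library total after TMM scaling, and log2 fold changes are EpiLC minus ESC. Calls rest on edgeR's quasi-likelihood test of the 14996 genes with enough counts, at an adjusted p below 0.05, and all 10 enzyme genes were among these. Library totals ran from 9710410 to 22879812 counts. Nothing in the labels says whether libraries of a state came from separate cultures, so the p-values measure only the spread between these libraries. ESC replicate 3 stood apart. Its counts differed from those of the other ESC libraries by a chi-square of 17.3 and 17.7 for each degree of freedom, against 1.77 to 3.05 for the other pairs within a state. The states matched their labels: 10 of 10 naive markers were lower in EpiLC (summed level 3283 to 3445 CPM in ESC, 295 to 304 CPM in EpiLC) and 7 of 7 formative markers were higher. Of 10 fibroblast markers, 5 were higher and 1 lower, with a summed level of 13.0 to 16.8 CPM in ESC and 273 to 320 CPM in EpiLC. Of the EpiLC sum, Tagln alone gave at least 249 CPM in each library, while Lum was at 0 and Postn reached at most 0.09 CPM. Pdgfrb, the 1 that was lower, was at 6.26 to 9.93 CPM in ESC and 1.52 to 2.22 CPM in EpiLC. Dcn was at 0 in ESC and at 4.01 to 4.79 CPM in EpiLC, Acta2 at 0 to 0.10 and 5.12 to 7.05 CPM, and Col1a2 at 0.09 to 0.17 and 3.30 to 4.52 CPM. Of 6 neural markers, 4 were higher, with a summed level of 92.4 to 133 CPM in ESC and 410 to 446 CPM in EpiLC. Nes, at 29.5 to 67.6 CPM in ESC and 329 to 386 CPM in EpiLC, gave most of the EpiLC sum. Tubb3 was at 49.0 to 53.0 CPM in ESC and 36.1 to 49.1 CPM in EpiLC, and Pax6 at 0.10 to 0.32 and 8.73 to 9.46 CPM. Of 8 primitive endoderm markers, 2 were higher and 2 lower, with sums of 8.61 to 13.1 and 16.7 to 19.2 CPM. Dab2 was at 0.10 to 1.31 CPM in ESC and 9.20 to 11.0 CPM in EpiLC, Gata4 at 1.45 to 4.36 and 4.37 to 5.22 CPM, and Hnf4a at 2.44 to 4.05 CPM and 0. Of 8 trophectoderm markers, 2 were higher and 2 lower, with sums of 73.7 to 85.3 and 89.0 to 108 CPM. Krt8 was at 13.5 to 18.8 CPM in ESC and 66.1 to 82.9 CPM in EpiLC, Krt7 at 0.61 to 1.58 and 3.91 to 5.80 CPM, Tfap2c at 34.6 to 36.6 and 3.34 to 3.75 CPM, and Elf5 at 0 to 0.09 CPM and 0. The part of these markers in the results below was not tested. In bulk RNA, fewer cells that express a gene and less RNA per cell cannot be told apart.

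Of the 10 enzyme genes, 7 were lower in EpiLC, 0 were higher and 3 were not called, where 32.6% of all genes tested were called lower, 32.0% higher and 64.6% in either direction. The 7 were Tdh, Gcat, Gcsh, Shmt1, Shmt2, Psat1 and Psph, and the 3 were Gldc, Mthfd2 and Phgdh. The median log2 fold change of the 10 was -0.53, against 0.01 over all genes tested. Of the 10, Tdh alone fell by more than 2-fold, as did 12.4% of all genes tested. In each of the 7 the EpiLC libraries lay below every ESC library, as in 35.3% of all genes tested. With Phgdh, whose EpiLC libraries all lay above, the states did not overlap in 8 of 10 genes, against 70.2% of all genes tested. The count of 7 lower held without ESC replicate 3 and without each other library in turn. The count of 0 higher was 1 under upper quartile scaling (Phgdh). It was 2 (Phgdh and Gldc) when library totals replaced TMM factors or when the filter on low counts was stricter.

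**Figure D1:**
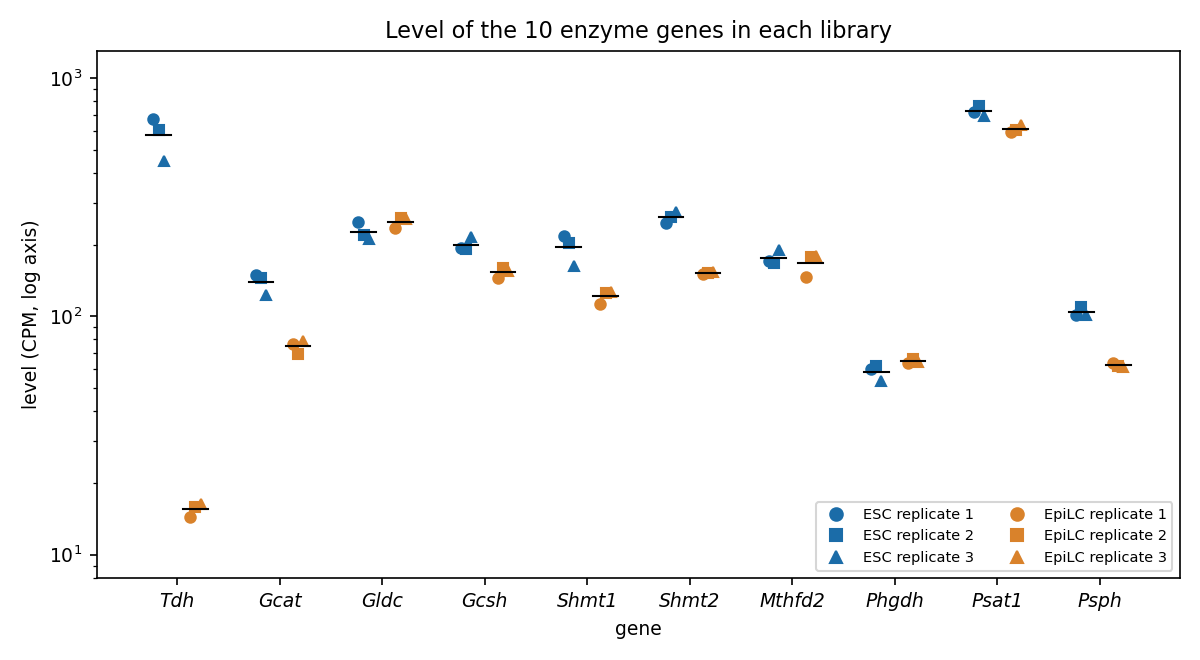
Level in CPM (log axis) of each enzyme gene in each of the 6 libraries, ESC in blue and EpiLC in orange, with a horizontal line at the mean of 3 libraries. Tdh drops from between 447 and 672 CPM to between 14.4 and 16.3 CPM, while the EpiLC mean of each other gene lies within 2-fold of its ESC mean.

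Tdh (ENSMUSG00000021953, chromosome 14, 63492347 to 63509092, minus strand, on GRCm38 as for all positions) had 672, 607 and 447 CPM in the ESC libraries 1 to 3 and 14.4, 15.8 and 16.3 CPM in the EpiLC libraries 1 to 3. The lowest ESC library, replicate 3, was still far above every EpiLC library. The mean fell from 575 ± 116 to 15.5 ± 1.03 CPM (SD, n = 3), 37.1-fold, with a log2 fold change of -5.21 (SE 0.17, 95% interval -5.60 to -4.82, adjusted p = 1.74e-07). Of all genes tested, 138 (0.920%) had a log2 fold change as low or lower. The log2 fold change of Tdh ran from -5.38 to -5.10 over the alternative settings. The transcript was still counted in EpiLC, whose libraries held 143, 185 and 183 reads of it, where a count of 0 allows up to 3. Gm13929, a transcribed processed pseudogene on chromosome 2 that is 97.1% identical to Tdh over 1125 aligned bases, had at most 18 counts in any library.

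Gcat (ENSMUSG00000006378, chromosome 15, 79030874 to 79038353, plus strand), which takes the product of TDH, was at 149, 144 and 123 CPM in ESC and 76.9, 69.5 and 78.9 CPM in EpiLC. The groups did not overlap. The mean fell 1.85-fold, from 139 ± 13.9 to 75.1 ± 4.94 CPM. Its log2 fold change of -0.89 had a 95% interval of -1.10 to -0.68 (adjusted p = 6.10e-05). GENCODE also lists an overlapping protein-coding gene model under the symbol Gcat that shares 1132 exon bases with it. That model has no row of its own in the table used here, so the counts of Gcat may hold or lack shared reads.

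Per kilobase of exon, a scale that allows for gene length, Tdh was 3.73 times as high as Gcat in ESC and 0.193 times as high in EpiLC. These ratios depend on the length used. Per kilobase of the longest annotated transcript, the means of Tdh and Gcat were 306 and 58.5 CPM in ESC and 8.24 and 31.7 CPM in EpiLC. The log2 ratio of Tdh to Gcat was 2.04, 1.94 and 1.72 in ESC and -2.51, -2.23 and -2.37 in EpiLC. The difference between the states was -4.27, and the exact two-sided permutation test over 3 against 3 libraries gave p = 0.1, the smallest it allows (0.15 adjusted over the 6 pairs of genes compared in this way). Tdh lay above Gcat in every ESC library and below it in every EpiLC library.

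**Figure D2:**
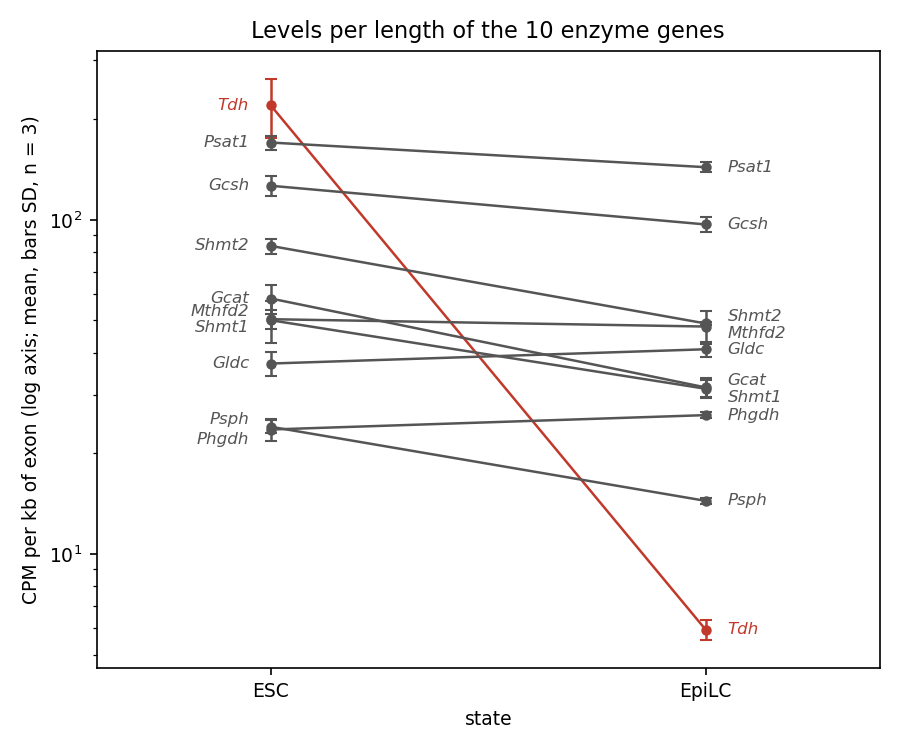
Mean CPM per kilobase of exon (log axis) of the 10 enzyme genes in ESC and EpiLC, with SD bars over 3 libraries and a line joining the same gene. Tdh, in red, goes from the first to the last place, while each other mean differs by less than 2-fold between the states.

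On this scale Tdh had the highest mean of the 10 genes in ESC, at 220 ± 44.4 CPM per kilobase, and the lowest in EpiLC, at 5.93 ± 0.39. The range of the ESC libraries of Tdh (171 to 257) overlapped that of Psat1 (163 to 179). Within each ESC library Tdh lay above Psat1, by the smallest margin in replicate 3. In ESC the order went on with Psat1 (170 ± 8.39), Gcsh (127 ± 8.35), Shmt2 (83.6 ± 4.33), Gcat (58.2 ± 5.81), Mthfd2 (50.4 ± 3.45), Shmt1 (50.1 ± 7.24), Gldc (37.2 ± 3.17), Psph (24.0 ± 1.07) and Phgdh (23.6 ± 1.75). Gcat and Mthfd2, Mthfd2 and Shmt1, and Psph and Phgdh overlapped as neighbours. In EpiLC, Psat1 led at 144 ± 4.98, before Gcsh at 96.9 ± 4.77. Shmt2, Mthfd2 and Gldc followed between 41.0 and 49.0 with overlapping ranges of neighbours, though Mthfd2 lay above Gldc within each EpiLC library. Then came Gcat and Shmt1 at 31.5 and 31.2, which overlapped too, Phgdh at 26.0 and Psph at 14.4. With the longest annotated transcript as the length instead, 6 of 10 genes kept their place in ESC and 5 of 10 in EpiLC. By its mean, Tdh remained first in ESC and last in EpiLC, but in ESC replicate 3 it then lay below Psat1. Tdh made up 29.1%, 26.9% and 21.8% of the summed level per kilobase of the 10 genes in ESC and 1.17%, 1.23% and 1.25% in EpiLC. Without Tdh, that sum was 614 to 632 CPM per kilobase in ESC and 462 to 495 in EpiLC, lower in each EpiLC library than in any ESC library.

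The 3 protein-coding genes whose levels over the 6 libraries were most like those of Tdh were Trap1a, Gpa33 and 2410137M14Rik. Likeness was the Euclidean distance between log2(CPM + 0.5) values, centred on each gene, among 9222 genes with a mean of at least 10 CPM. Trap1a (chromosome X, 139333683 to 139338169; distance 0.30) fell from 194 ± 20.6 to 5.44 ± 0.20 CPM. Gpa33 (chromosome 1, 166130238 to 166166510; distance 0.30) fell from 76.1 ± 14.4 to 1.68 ± 0.35 CPM. The gene 2410137M14Rik (chromosome 17, 36977701 to 36981237; distance 0.44) fell from 21.9 ± 1.80 to 0.087 ± 0.086 CPM. The added 0.5 CPM shortens the distance of genes this low in EpiLC, and the fitted log2 fold change of 2410137M14Rik was -7.78.

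The glycine cleavage system is built from the P protein GLDC, which releases carbon dioxide from glycine, the lipoate-bearing H protein GCSH, the T protein AMT, which hands the carbon unit to folate, and the L protein DLD, which it shares with other dehydrogenase complexes. Of these 4 genes, Gcsh and Amt fell, and Gldc and Dld were not called. Gldc (ENSMUSG00000024827, chromosome 19, 30098447 to 30175429, minus strand) stood at 248, 220 and 211 CPM in ESC and 235, 258 and 256 CPM in EpiLC. The groups overlapped, and the gene was not called (log2 fold change 0.14, 95% interval -0.037 to 0.32, adjusted p = 0.143). Gcsh (ENSMUSG00000034424, chromosome 8, 116981810 to 116993537, minus strand) was at 193, 192 and 215 CPM in ESC and 145, 160 and 154 CPM in EpiLC, with no overlap. It fell 1.30-fold (log2 fold change -0.38, SE 0.07, adjusted p = 0.00166). Of the genes that complete the system, Amt fell 2.47-fold from 204 ± 2.06 to 82.7 ± 5.45 CPM, and Dld was not called (127 ± 14.4 and 119 ± 0.53 CPM). Dld was called lower without ESC replicate 3 (log2 fold change -0.20, adjusted p = 0.00350). That fit called 11730 genes over the whole table, against 9686 with all libraries. The log2 ratio of Gldc to Gcsh per kilobase was -1.58, -1.75 and -1.97 in ESC and -1.25, -1.26 and -1.22 in EpiLC, higher in each EpiLC library than in any ESC library (exact permutation p = 0.1, 0.15 adjusted).

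Serine hydroxymethyltransferases move a carbon unit from serine to folate, SHMT1 in the cytosol and SHMT2 in mitochondria. Shmt1 (ENSMUSG00000020534, chromosome 11, 60788104 to 60811718, minus strand) was at 217, 204 and 163 CPM in ESC and 113, 125 and 126 CPM in EpiLC. Shmt2 (ENSMUSG00000025403, chromosome 10, 127517123 to 127522444, minus strand) was at 246, 260 and 273 CPM in ESC and 151, 152 and 153 CPM in EpiLC. Neither gene overlapped between the states. ESC replicate 3 was the lowest ESC library for Shmt1 and the highest for Shmt2. Shmt1 fell 1.60-fold (log2 fold change -0.68, SE 0.11, adjusted p = 7.07e-04) and Shmt2 fell 1.71-fold (log2 fold change -0.77, SE 0.06, adjusted p = 1.38e-05). Per kilobase, Shmt2 was 1.68 times as high as Shmt1 in ESC and 1.57 times as high in EpiLC. The log2 ratio was 0.51, 0.67 and 1.07 in ESC and 0.74, 0.61 and 0.60 in EpiLC, which overlapped (difference -0.098, exact permutation p = 0.8, 0.8 adjusted). Without ESC replicate 3 the difference was 0.061. Shmt1 shares 184 exon bases with Smcr8 on the opposite strand, which had 911 to 2213 counts in a library. Shmt2 shares 32 with Ndufa4l2, which had at most 98. The strand setting of the counting is unknown here, so reads in these stretches are uncertain.

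Mthfd2, the mitochondrial dehydrogenase and cyclohydrolase (ENSMUSG00000005667, chromosome 6, 83305691 to 83325908, minus strand), was at 171, 167 and 190 CPM in ESC and 146, 177 and 179 CPM in EpiLC. The groups overlapped, and the gene was not called (log2 fold change -0.072, 95% interval -0.29 to 0.14, adjusted p = 0.522). Without EpiLC replicate 1, the lowest library, the value was 0.019. Mthfd1, the cytosolic enzyme of the same route, was at 544 ± 7.51 and 545 ± 10.7 CPM and was not called. Mthfd1l, which releases formate in mitochondria, was called higher at 174 ± 7.78 and 198 ± 12.1 CPM (log2 fold change 0.19, adjusted p = 0.0413). That call was lost with the replicate number as a block (adjusted p = 0.0928), with DESeq2 (0.143), without a filter (0.377), and without ESC replicate 1 (0.0726) or 2 (0.112) or EpiLC replicate 2 (0.0913) or 3 (0.189). Mthfd2l, the isoenzyme of Mthfd2, rose 5.37-fold from 0.78 ± 0.31 to 3.92 ± 0.27 CPM, and per kilobase it was at 0.59 CPM against 47.9 for Mthfd2 in EpiLC. The log2 ratio of Mthfd2 to Mthfd1 overlapped between the states (difference -0.080, exact permutation p = 0.6, 0.72 adjusted). The difference was 0.021 without EpiLC replicate 1.

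Of the 3 genes of serine synthesis, Psat1 and Psph fell and Phgdh was not called. Phgdh, which catalyses the entry step (ENSMUSG00000053398, chromosome 3, 98313170 to 98339990, minus strand), was at 60.0, 62.1 and 53.7 CPM in ESC and 63.5, 66.3 and 64.4 CPM in EpiLC. The EpiLC libraries all lay above the ESC libraries, by a margin that was not called (log2 fold change 0.14, 95% interval -0.034 to 0.32, adjusted p = 0.136). It was called higher when upper quartile scaling (adjusted p = 0.0480), library totals (0.0272) or the stricter filter (0.0414) was used. Psat1, the aminotransferase of the following step (ENSMUSG00000024640, chromosome 19, 15904678 to 15947337, minus strand), was at 721, 763 and 692 CPM in ESC and 595, 605 and 635 CPM in EpiLC. It fell 1.19-fold, the smallest of the 7 falls, without overlap (log2 fold change -0.25, SE 0.06, adjusted p = 0.00854). Psph, the phosphatase that releases serine (ENSMUSG00000029446, chromosome 5, 129765558 to 129787449, minus strand), was at 101, 109 and 102 CPM in ESC and 63.7, 62.0 and 61.5 CPM in EpiLC. It fell 1.67-fold (log2 fold change -0.74, SE 0.06, adjusted p = 2.39e-05). The log2 ratio of Phgdh to Psat1 per kilobase was -2.84 ± 0.05 in ESC and -2.45 ± 0.06 in EpiLC, and that of Psat1 to Psph was 2.82 ± 0.03 and 3.31 ± 0.07, each with every EpiLC library above every ESC library (exact permutation p = 0.1, 0.15 adjusted).

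**Figure D3:**
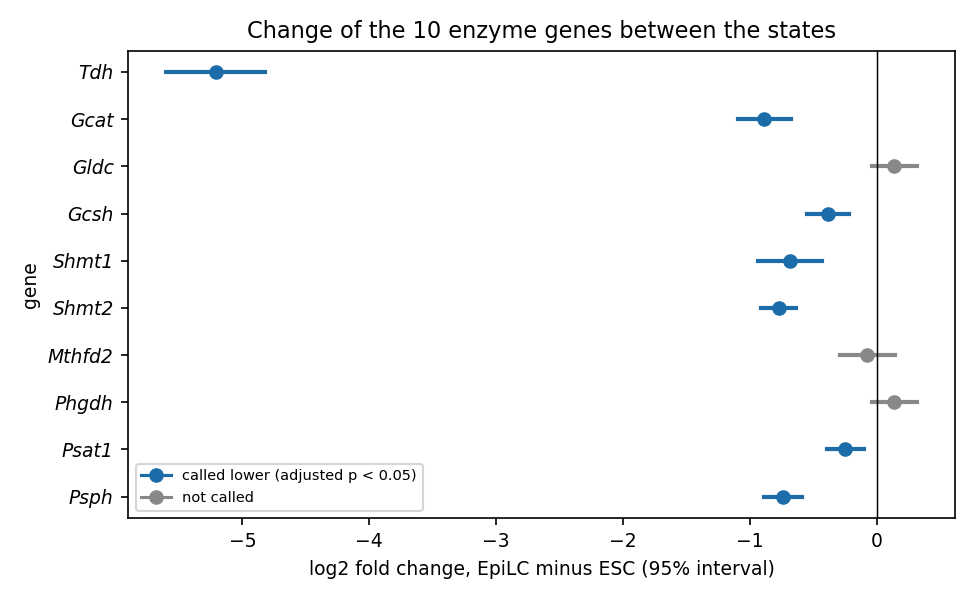
Log2 fold change (EpiLC minus ESC) of each enzyme gene with its 95% interval, blue for genes called lower and grey for genes not called. Tdh lies at -5.21, the other 6 called genes lie between -0.89 and -0.25, and the intervals of Gldc, Mthfd2 and Phgdh cross 0.

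Some of these counts are less certain than their spread shows. A search of GENCODE transcripts for copies at least 90% identical over at least 200 bases found 19 other gene models for Phgdh, among them Gm7901 on chromosome 8, 98.7% identical over 1597 aligned bases with up to 66 counts in a library. Reads of Phgdh that fit such copies equally well may not have been counted, so its level per kilobase, and its place in the order, may be too low. For Gcsh there were 5 such models with at most 28 counts, for Psat1 1 with at most 6 counts, and for Shmt2 1 with at most 1. Psph shares 452 of its 4329 exon bases with Cct6a, a highly expressed gene on the opposite strand with 10766 to 29792 counts in a library, so reads of that stretch are uncertain.

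**Figure D4:**
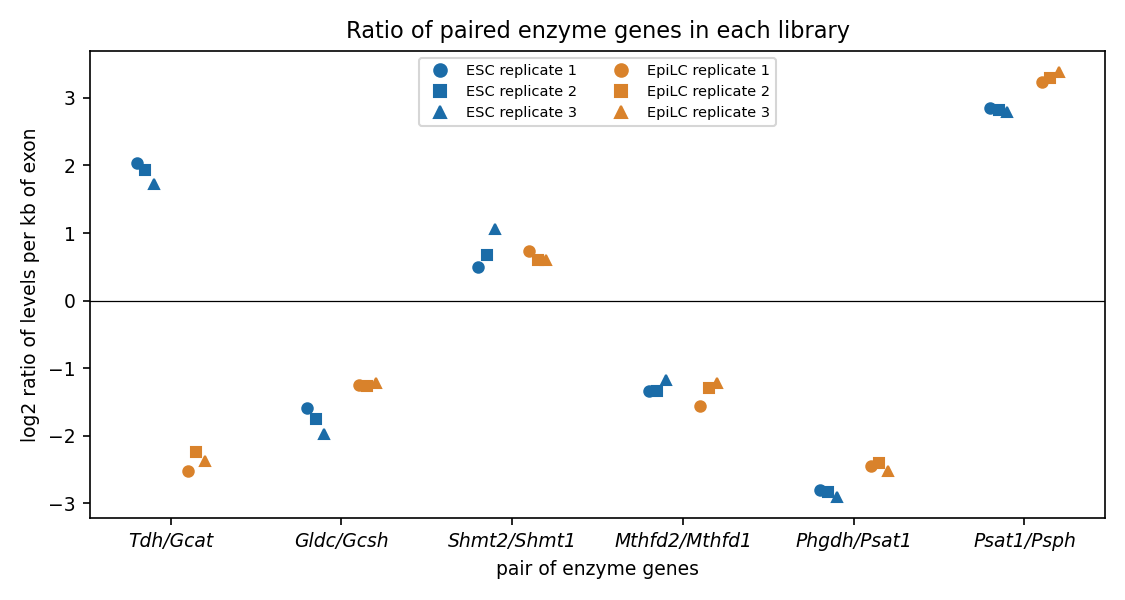
Log2 ratio of levels per kilobase of exon for 6 pairs of enzyme genes in each library, ESC in blue and EpiLC in orange. Tdh to Gcat crosses 0 between the states, whereas the ratios of Shmt2 to Shmt1 and of Mthfd2 to Mthfd1 overlap.

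Stretches before the transcription start are shown for 4 members, the SHMT pair as isoenzymes that both fell, and Psat1 and Gldc as the highest gene per kilobase in EpiLC and a gene that was not called. The sequences are from RefSeq on GRCm38.p6, where 9 of the 10 members, all but Tdh, have an entry. Those shown are 120 bases each, 5′ to 3′ on the gene's strand and free of annotated exons. The stretches of Psat1 and Shmt1 lie inside the gene models given above, whose outer ends are at 15947337 and 60811718. They precede a RefSeq start but not the whole gene model. The stretches of Phgdh, Psph, Mthfd2 and Gcsh hold 21, 120, 2 and 39 annotated exon bases and are not shown. Capitals mark CCAAT, the box bound by the factor NF-Y, or its reverse complement.
Shmt1, chr11:60811266-60811385, minus strand: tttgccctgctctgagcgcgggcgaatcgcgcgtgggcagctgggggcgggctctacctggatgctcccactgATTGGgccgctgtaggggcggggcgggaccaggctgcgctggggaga
Shmt2, chr10:127522445-127522564, minus strand: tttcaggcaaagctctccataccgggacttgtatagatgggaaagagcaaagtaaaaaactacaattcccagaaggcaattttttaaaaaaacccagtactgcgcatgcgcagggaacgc
Psat1, chr19:15925060-15925179, minus strand, the outer of 2 listed starts: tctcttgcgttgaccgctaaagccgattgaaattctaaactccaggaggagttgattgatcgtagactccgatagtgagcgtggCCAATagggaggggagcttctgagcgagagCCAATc
Gldc, chr19:30175442-30175561, minus strand: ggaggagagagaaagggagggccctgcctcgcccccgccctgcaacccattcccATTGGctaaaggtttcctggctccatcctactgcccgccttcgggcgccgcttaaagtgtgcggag
CCAAT was searched on both strands from 250 bases before to 50 bases after the start. The 9 genes have 10 windows, since Psat1 has 2 listed starts. CCAAT was found in 7 of the 10 windows, against 37.4% of all 32851 windows. Those without it were the windows of Gcat and Shmt2 and that of the inner start of Psat1. The 7 genes with a match include Gldc, Mthfd2 and Phgdh, which were not called, and 4 that fell. CACGTG, the E-box, was found in Gcat alone, just past the start, and in 7.15% of all windows. TGATGNAA, a form of the site bound by ATF4, was in 0 of the 10 windows and 3.97% of all windows. The reverse complement of ATTGCATCA contains TGATGNAA, so ATTGCATCA could not occur in these 10 windows either. It was in 0.192% of all windows. CCACACCC, a KLF-type box, was in 0 of the 10 and in 3.56% of all windows. For motifs this rare over all windows, 0 of 10 cannot show that the members lack a site. These matches describe letters in a window and were chosen with the values known.

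Other genes of the pathway were taken from 6 lists. The counts of each list stand beside shares of 32.0% higher, 32.6% lower and 64.6% in either direction over all genes tested. Of 11 tested genes of folate interconversion outside the 10 members, 2 were higher, 5 lower and 4 not called (median log2 fold change -0.17). The largest fall was in Aldh1l1, a cytosolic enzyme that oxidises formyl-folate to carbon dioxide, which went from 29.3 ± 2.62 to 3.00 ± 0.27 CPM, 9.75-fold. Mtfmt, which formylates the initiator tRNA of mitochondria, was not called (14.2 and 12.6 CPM). Of 6 tested genes of folate transport and retention, 2 were lower and 4 not called. Folr1, a folate receptor, fell 2.13-fold from 79.7 ± 7.14 to 37.4 ± 4.49 CPM, and Slc46a1, the proton-coupled folate transporter, fell 1.42-fold to 6.02 ± 0.28 CPM. The 4 not called were Slc19a1 (20.1 and 17.8 CPM), Slc25a32 (27.4 and 25.8 CPM), Fpgs (50.5 and 47.9 CPM) and Ggh (10.5 and 9.19 CPM). Without ESC replicate 3, Slc19a1 and Ggh were called too, making 4 lower. In that fit 11730 genes were called over the whole table, against 9686 with all libraries.

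Of 12 tested genes of the methionine cycle and the route from homocysteine to cysteine, 3 were higher, 5 lower and 4 not called (median -0.12). Cth, which makes cysteine from cystathionine, fell 2.86-fold from 370 ± 57.5 to 129 ± 8.24 CPM, and Cbs, which joins serine to homocysteine, fell 2.37-fold from 51.3 ± 13.3 to 21.5 ± 2.42 CPM. Bhmt2, a homocysteine methyltransferase, fell from 4.69 ± 2.43 to 0.33 ± 0.03 CPM. ESC replicate 3 was the highest ESC library for both Cbs (66.6 CPM) and Bhmt2 (7.49 CPM). The 4 not called were Mat2b (135 and 130 CPM), Ahcyl2 (48.1 and 52.8 CPM), Gnmt (3.66 and 4.28 CPM) and Amd1 (41.2 and 36.6 CPM). Of 11 tested genes of serine and glycine transport and use, 2 were higher, 5 lower and 4 not called (median -0.23). Gatm, which uses glycine in the entry step of creatine synthesis, had 9, 8 and 2 counts in ESC and rose from 0.33 ± 0.15 to 17.4 ± 0.52 CPM, 47.6-fold. Slc1a5, a neutral amino acid transporter, fell 2.05-fold from 201 ± 12.1 to 98.2 ± 8.09 CPM, and Ptdss1, which makes phosphatidylserine, fell 1.72-fold to 56.9 ± 4.57 CPM. The 4 not called were the mitochondrial serine carrier Sfxn1 (97.3 and 92.9 CPM), Slc1a4 (55.7 and 61.6 CPM), Slc25a38 (24.3 CPM in ESC, log2 fold change -0.22) and Srr (3.17 and 2.50 CPM).

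Purine synthesis takes up glycine and formyl-folate. Of 12 genes tested, 2 were higher, 4 lower and 6 not called, none of them called with a 2-fold difference (median -0.10). Paics fell 1.48-fold from 1058 ± 44.5 to 714 ± 14.8 CPM, while Gmps rose 1.65-fold to 326 ± 11.3 CPM and Adsl rose 1.41-fold to 183 ± 10.8 CPM. Gart and Atic, the enzymes that use formyl-folate, were not called (785 and 748 CPM; 257 and 293 CPM). Nor were Prps1 (102 and 93.5 CPM), Pfas (374 and 371 CPM), Impdh1 (46.8 and 41.1 CPM) and Adssl1 (4.14 and 4.33 CPM). Of 16 genes of ATF4, a factor known to drive serine synthesis genes, and of its response, 4 were higher, 6 lower and 6 not called (median -0.16). Atf4 itself was not called (314 ± 18.4 and 282 ± 21.5 CPM). Nor were Atf5 (21.1 and 26.1 CPM), Ddit3 (10.1 and 6.53 CPM), Ddit4 (35.0 and 32.6 CPM), Slc3a2 (297 and 265 CPM) and Slc7a5 (237 and 315 CPM). Asns, asparagine synthetase, fell 3.77-fold from 1637 ± 73.8 to 434 ± 29.9 CPM, and Nupr1 fell 11.2-fold from 42.3 ± 9.07 CPM, whereas the cystine transporter gene Slc7a11 rose 4.20-fold to 4.96 ± 1.13 CPM. In ESC replicate 3 Slc7a11 stood at 2.61 CPM, above the 0.73 and 0.77 CPM of the other ESC libraries. Without that library the log2 fold change of Slc7a11 was 2.72 in place of 2.07, and it ran from 1.74 to 2.72 over the libraries left out.

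**Figure D5:**
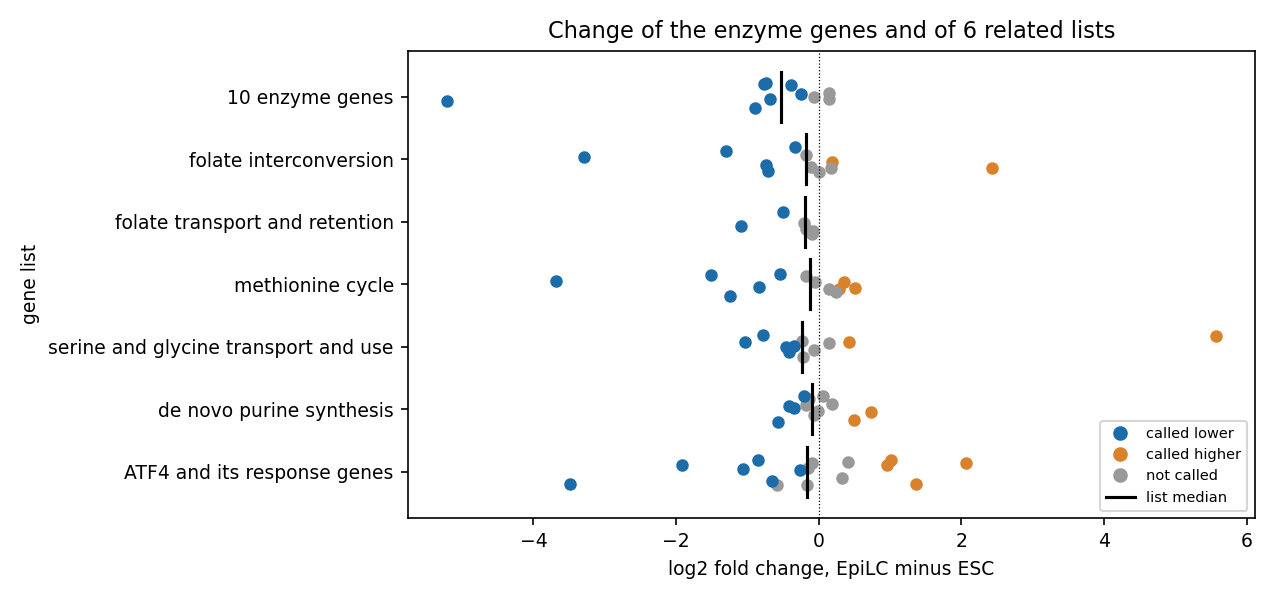
Log2 fold change (EpiLC minus ESC) of each tested gene of the 10 enzyme genes and of 6 related lists, blue for called lower, orange for called higher, grey for not called, with a line at each list's median. The median is -0.53 for the enzyme genes and lies between -0.23 and -0.10 for the other lists.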

How the data were processed

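The authors deposited raw read counts per Ensembl gene, 1 column for each of 6 libraries. Per the submitters' processing notes, cutadapt, STAR, featureCounts and DESeq2 were used with mm10. Tool versions, the rule for multi-mapped reads, the gene annotation and use of strand were not given in the sources used here. Per the labels' protocols, Ribo-Zero Gold depleted RNA (about 100 ng) went into a Kapa stranded kit. The 92 spike-in rows held 0 counts and were left out. Of 51826 identifiers, 51633 matched GENCODE M21 (GRCm38, the assembly of mm10), and the rest held at most 0.033% of a library's counts. A count of 0 allows up to 3 counts, 0.131 to 0.309 CPM by library on library totals without TMM scaling, for counting error only.

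Counts were tested with edgeR 4.0.16 (R 4.3.3; quasi-likelihood, legacy option off, TMM). Genes were filtered by filterByExpr, set to a minimum count of 10 and a minimum total of 15, which does not ask for 10 counts in every library. Group was the only term, and tests were two-sided, with Benjamini-Hochberg adjustment over all genes tested. Standard errors derive from the quasi-likelihood F. The code was tested on simulated counts. Alternatives were DESeq2 1.42.0, upper quartile scaling, median-ratio factors in edgeR, library totals, no filter, a filter of 50 counts in 3 libraries, a replicate block, and each library left out. Lengths are unions of GENCODE exons. Pair ratios used 0.5 CPM as pseudocount (2 as alternative) and exact permutation tests (scipy 1.17.1). Copies were searched with BLAST 2.17.0. Named were all members, Amt, Dld, Mthfd1, Mthfd1l and Mthfd2l, up to 3 called genes per list with the largest change and at least 1 CPM in the higher group, uncalled list genes as values, and 3 genes most like Tdh. The values of 1 uncalled list gene are not reported here. The members and lists were chosen with earlier results of these data known.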

Additional observations from a re-analysis of the deposited data

How the results depend on the processing

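Each of the 7 falls kept its direction and its call under the 13 alternative fits, and the count of 7 lower members did not change. The number of genes called over the whole table was 9686, and 8514 to 11730 when a library was left out, the most without ESC replicate 3. Members called higher, 0 in the main analysis, were 1 with upper quartile scaling (Phgdh, log2 fold change 0.19), 2 with library totals (Phgdh 0.21, Gldc 0.21) and 2 with the stricter filter (Phgdh 0.19, Gldc 0.19). The cause was not tested. The 2 higher genes of folate interconversion became 1 with DESeq2, without a filter and with the replicate block. They became 3 with upper quartile scaling, median-ratio factors in edgeR and library totals. Leaving out a library gave 1 to 3 (1, with Mthfd1l lost, without ESC replicate 1 or 2 or EpiLC replicate 2 or 3). The 2 higher genes of serine and glycine transport and use became 1 with DESeq2 and without a filter, and 1 to 3 when a library was left out (1, with Slc6a9 lost, without the same 4 libraries). For folate transport and retention, leaving out a library gave 0 to 1 higher, the 1 being Folr2 without ESC replicate 2 or EpiLC replicate 1, and 2 to 4 lower, the 4 without ESC replicate 3. Signs changed for Mthfd1, at 0.0032 with all libraries (-0.022 with DESeq2, -0.065 without a filter, -0.021 to 0.013 without a library), for Mthfd2 (-0.13 to 0.019 without a library), and for the log2 ratio differences of Shmt2 to Shmt1 (-0.22 to 0.061) and Mthfd2 to Mthfd1 (-0.15 to 0.021). With the longest transcript as length, 6 members kept their place in ESC and 5 in EpiLC.

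Libraries with the same replicate number did not deviate together (correlations -0.09, -0.01 and -0.15 for numbers 1 to 3). With 3 libraries per state and ESC replicate 3 apart, these values cannot show whether such libraries shared a culture or batch. With the replicate block 9231 genes were called, 9116 of them also called without it. Changing the scaling moved the median log2 fold change over all genes to between 0.01 and 0.08. With 3 libraries per state, the pair ratios cannot reach an exact p below 0.1. Genes with few counts, such as Gatm in ESC and Mthfd2l, are limited by depth.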

Other observations

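Several genes of the related lists had too few counts to be tested. Bhmt, a homocysteine methyltransferase beside Bhmt2, had 53 counts over the ESC libraries and 0 over the EpiLC libraries. Mat1a, the liver form of methionine adenosyltransferase, had 1 count over ESC and 15 over EpiLC, while Mat2a, the form found in most tissues, rose from 229 ± 13.8 to 324 ± 17.3 CPM. The folate enzymes Ftcd and Mthfs had 0 and 21 counts over ESC and 3 and 6 over EpiLC. Sds, which breaks down serine, had 0 counts over ESC and 2 over EpiLC.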
